A study of Danio rerio with 6 samples.

Results

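The genes described here make cholesterol or take it up: hmgcra, hmgcs1, idi1, fdps, sqlea, lss and dhcr7 encode enzymes of cholesterol synthesis, ldlra encodes a receptor for low density lipoprotein (LDL), and srebf2 encodes the transcription factor that controls such genes in vertebrates. They were taken by symbol from a list of 9 sterol genes, and all 9 were found among the 14612 genes of the count table. The nucleotide group was 3 pools of whole zebrafish embryos at 7 days post fertilization, exposed to nucleotides dissolved at 10 µM in embryo medium, and the control group was 3 pools of the same stage in embryo medium at 0 µM. Each pool held 33 to 35 embryos, and poly(A) selection or depletion of ribosomal RNA is not given in the sources used here. Which nucleotides were used, the strain and the length of exposure are not given either. The name of the count table and its columns for the exposed libraries carry the words carbon monoxide in shortened form. The name of the agent thus rests on the labels of the samples. The labels number the pools but name no clutches, so any p-value here reflects pool-to-pool spread, which may be technical. In fits with the replicate number as a block, that is only the spread left after differences between the numbers.

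Cells build cholesterol from acetyl-CoA by way of mevalonate, isoprenoid diphosphates and squalene, and HMG-CoA reductase, the enzyme that hmgcra encodes, is the main point of control in mammals. When sterols in the endoplasmic reticulum run low, the protein encoded by srebf2 is cut from its membrane anchor and switches on synthesis genes and the LDL receptor together. In larval zebrafish, cholesterol also comes from yolk and food, and liver, gut and the forming myelin of the nervous system are known sites of its handling.

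Libraries held 25792829 to 31556366 counts in the nucleotide group and 18690465 to 23066970 in the control group, so the nucleotide libraries were deeper without overlap. The 9 genes summed to 8729 to 9971 counts in nucleotide and 6851 to 8215 in control libraries. With library totals scaled by edgeR's TMM factors, their summed level was 329 to 351 CPM (library-scaled counts) in nucleotide and 334 to 355 CPM in control pools, which overlapped. In whole embryos, fewer cells of a type and less RNA per cell cannot be told apart.

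At a threshold of 0.05 for the adjusted p, edgeR's quasi-likelihood test without a replicate block called 0 of the 9 genes, against 0.937% of all tested genes called higher and 0.0525% called lower in nucleotide pools. At an unadjusted p under 0.05 there was 1, idi1, beside 14.5% of all tested genes. Libraries with the same replicate number deviated together, and with that number as a block in edgeR idi1 rose and the other 8 did not pass, a share of 1 in 9 beside 10.7% of all tested genes called higher and 8.38% called lower. DESeq2 without the block also called idi1 higher and no other of the 9, where 3.05% of all genes with an adjusted p were called higher. So did DESeq2 with the block, where 8.35% were called higher and 4.82% lower. The median log2 fold change of the 9 was -0.02, and that of all 13336 tested genes was -0.01. The shares thus lay near those of all genes, and the account below rests on single genes.

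idi1 (NCBI gene 553513) encodes isopentenyl-diphosphate isomerase, which turns isopentenyl diphosphate into the dimethylallyl form that starts the isoprenoid chain. It had 32.3, 31.9 and 42.0 CPM in nucleotide pools 1 to 3, against 19.7, 22.5 and 26.5 CPM in control pools 1 to 3. Every nucleotide pool lay above every control pool, as was the case for 11.5% of all tested genes, and pool 3 was the highest of its group in both arms. The means were 35.4 ± 5.71 CPM in nucleotide and 22.9 ± 3.44 CPM in control pools (SD, n = 3 each). The difference was 1.54-fold, a log2 fold change of 0.63 ± 0.153 (SE) with a 95% interval of 1.21- to 1.97-fold.

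In edgeR, idi1 passed with the block and not without it. Without the block its adjusted p was 0.122, and it stayed between 0.148 and 0.398 with any single library left out. With the block the log2 fold change was 0.63 ± 0.0792 (SE) and the edgeR adjusted p was 0.000345, and the call held without pair 1, 2 or 3 (adjusted p = 9.96e-07, 7.04e-08 and 0.00672). The values without pair 1 or 2 were smaller than with all pairs, though fewer libraries were used. Such fits lean on a spread estimated over many genes, so these p-values do not measure replicate support. Within pairs 1 to 3 the nucleotide library was higher by 0.71, 0.50 and 0.66 on the log2 scale. DESeq2 without the block gave an adjusted p of 0.0164. The authors' deposited table gives idi1 an adjusted p of 0.0153, where 3.3% of genes with a value are called higher, and a log2 fold change of 0.50, on a scale shrunken towards 0.

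**Figure D1:**
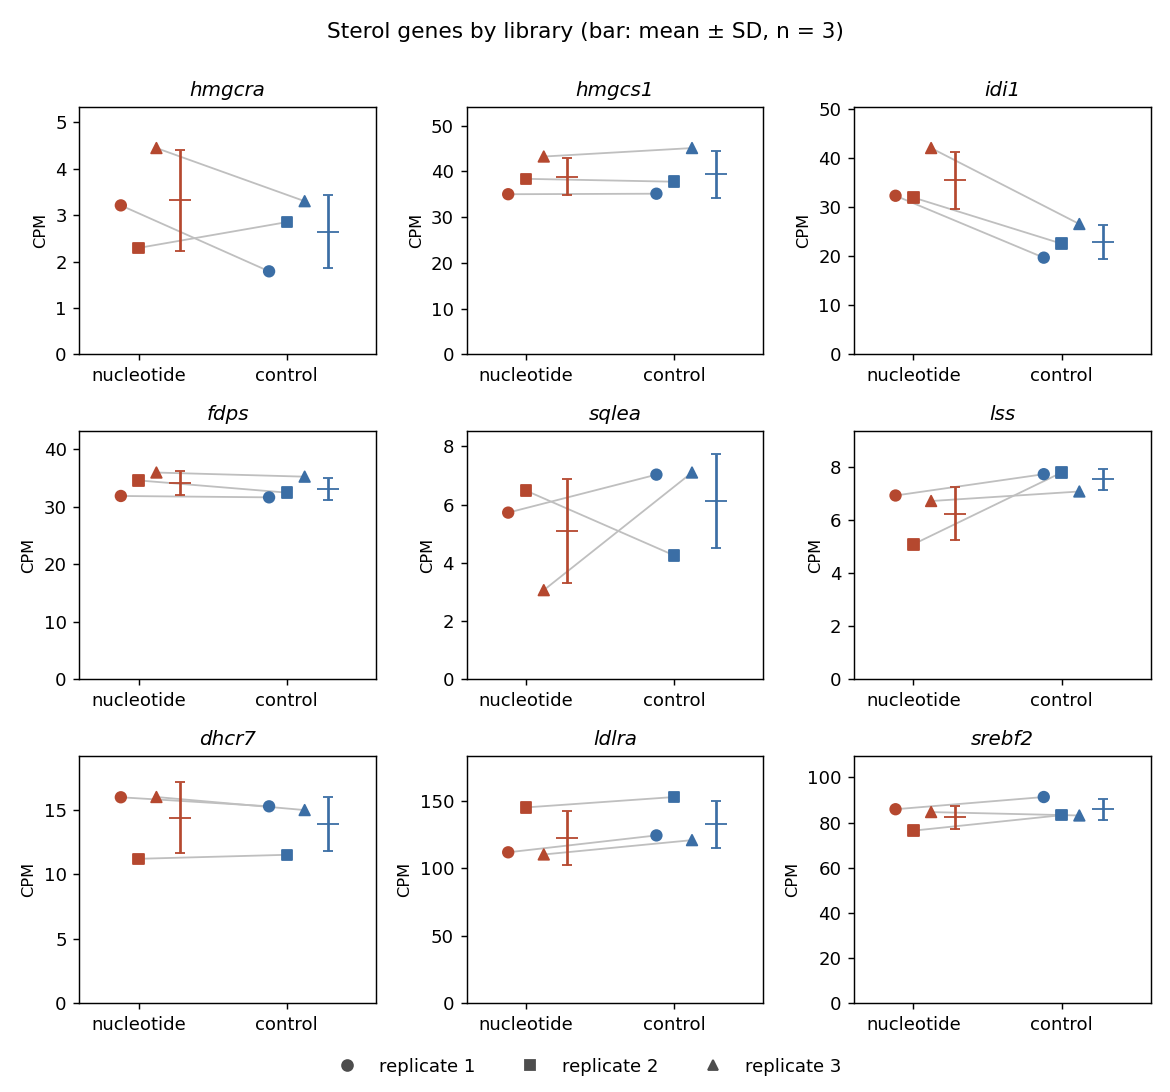
Level of each of the 9 genes in CPM (vertical axis, from 0, its own range in each panel) in the 3 nucleotide libraries (left, red) and 3 control libraries (right, blue), with grey lines joining libraries of the same number and bars for mean ± SD. idi1 is separated upward and lss downward in nucleotide pools, while the other 7 overlap.

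hmgcs1 and fdps, which act before and after idi1 in the pathway, differed little between the groups. hmgcs1 (394060) encodes the cytosolic HMG-CoA synthase, which makes the substrate of HMG-CoA reductase. It had 35.0, 38.4 and 43.2 CPM in nucleotide pools 1 to 3 and 35.1, 37.7 and 45.1 CPM in control pools 1 to 3. The ranking of the pools was the same in both arms, and same-numbered libraries differed by at most 0.06 on the log2 scale (-0.0046, 0.02 and -0.06). Nucleotide minus control was -0.02 ± 0.126 (SE) on the log2 scale, with a 95% interval of 0.808- to 1.21-fold (edgeR adjusted p = 0.97).

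fdps (552997) encodes farnesyl diphosphate synthase, which joins the products of the isomerase step into farnesyl diphosphate. Its levels were 31.9, 34.6 and 35.9 CPM in nucleotide pools 1 to 3 and 31.6, 32.4 and 35.2 CPM in control pools 1 to 3. The ranges overlapped nearly throughout. On the log2 scale the difference was 0.04 ± 0.0946 (SE), with a 95% interval of 0.886- to 1.2-fold (edgeR adjusted p = 0.877).

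hmgcra (559054) encodes HMG-CoA reductase a and was thinly covered, with 92, 57 and 128 counts in nucleotide libraries 1 to 3 and 42, 55 and 79 counts in control libraries 1 to 3. These were 3.21, 2.29 and 4.44 CPM in nucleotide and 1.79, 2.85 and 3.3 CPM in control pools. The groups overlapped, with pool 3 highest in both arms and pair 2 running against pairs 1 and 3. Their difference was 0.33 ± 0.316 (SE) on the log2 scale, or 1.26-fold, with a 95% interval of 0.757- to 2.08-fold that holds changes in either direction (edgeR adjusted p = 0.69).

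The second reductase gene, hmgcrb (541479), is a paralog outside the 9. It had 54.3, 51.8 and 56.9 CPM in nucleotide and 51.9, 50.4 and 55.8 CPM in control pools 1 to 3, a log2 fold change of 0.04 ± 0.0876 (SE) (edgeR adjusted p = 0.869). How reads matching both paralogs were counted is not given in the sources used here, so the split between hmgcra and hmgcrb is uncertain.

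sqlea (799528), for squalene epoxidase, which adds the first oxygen to squalene, varied most between pools of one group. Its counts were 164, 161 and 88 in nucleotide libraries 1 to 3 and 165, 82 and 170 in control libraries 1 to 3. In CPM these were 5.72, 6.48 and 3.06 in nucleotide and 7.03, 4.25 and 7.1 in control pools. One pool of each arm stood low, pool 3 among the nucleotide and pool 2 among the control pools. Exact 95% Poisson intervals of the low counts (70.6 to 108 for nucleotide library 3 and 65.2 to 102 for control library 2) did not meet those of the other libraries of the same group, of which the lowest began at 137 in nucleotide and 141 in control libraries. Those intervals cover counting error only, without the differences in library total.

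The log2 fold change of sqlea was -0.28 ± 0.312 (SE), with a 95% interval of 0.501- to 1.36-fold (edgeR adjusted p = 0.746). Same-numbered libraries differed by -0.30, 0.61 and -1.22 on the log2 scale in pairs 1 to 3. With the block the edgeR adjusted p was 0.43, but without pair 2 it was 0.00809 (log2 fold change -0.73), and without pair 3 the change turned to 0.12 (adjusted p = 0.769). Its value was thus decided by single pools.

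lss (795400) encodes lanosterol synthase, which folds the oxidised squalene into the first sterol ring system. It had 6.91, 5.07 and 6.7 CPM in nucleotide pools 1 to 3, against 7.71, 7.77 and 7.06 CPM in control pools 1 to 3. Every nucleotide pool lay below every control pool, as did those of 9.89% of all tested genes. Despite that separation lss did not pass, its log2 fold change being -0.27 ± 0.164 (SE). That is 0.83-fold, with a 95% interval of 0.638- to 1.08-fold (edgeR adjusted p = 0.507, and 0.219 with the block).

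dhcr7 (378446) encodes the reductase that turns 7-dehydrocholesterol into cholesterol, the closing step of one branch of the pathway. It had 15.95, 11.19 and 15.97 CPM in nucleotide and 15.25, 11.5 and 14.96 CPM in control pools 1 to 3. Pool 2 was the lowest of its group in both arms. For dhcr7 the log2 fold change was 0.05 ± 0.18 (SE), with a 95% interval of 0.774- to 1.38-fold (edgeR adjusted p = 0.937).

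ldlra (387529), the gene for an LDL receptor that brings lipoprotein cholesterol into cells, had 112, 145 and 110 CPM in nucleotide pools 1 to 3. Control pools 1 to 3 had 124, 153 and 121 CPM. Pool 2 was the highest of its group in both arms, the opposite of dhcr7, and the nucleotide library was the lower one in all 3 pairs (by 0.15, 0.07 and 0.13 on the log2 scale), as for 27.4% of all tested genes. The log2 fold change was -0.12 ± 0.144 (SE), with a 95% interval of 0.733- to 1.16-fold (edgeR adjusted p = 0.774, and 0.193 with the block). Its paralog ldlrb (393460), outside the 9, had 9.14, 6.92 and 7.95 CPM in nucleotide and 6.05, 4.87 and 7.06 CPM in control pools, a log2 fold change of 0.41 ± 0.186 (SE) (edgeR adjusted p = 0.36, and 0.0569 with the block). Neither receptor gene passed, and a difference between the 2 was not tested.

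srebf2 (100037309), for the sterol-regulated transcription factor, had 85.9, 76.4 and 84.6 CPM in nucleotide pools 1 to 3 and 91.3, 83.3 and 83.1 CPM in control pools 1 to 3. The groups overlapped. For srebf2 the log2 fold change was -0.06 ± 0.0912 (SE), with a 95% interval of 0.828- to 1.11-fold (edgeR adjusted p = 0.818). Its protein is controlled by cleavage, which RNA counts do not measure.

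**Figure D2:**
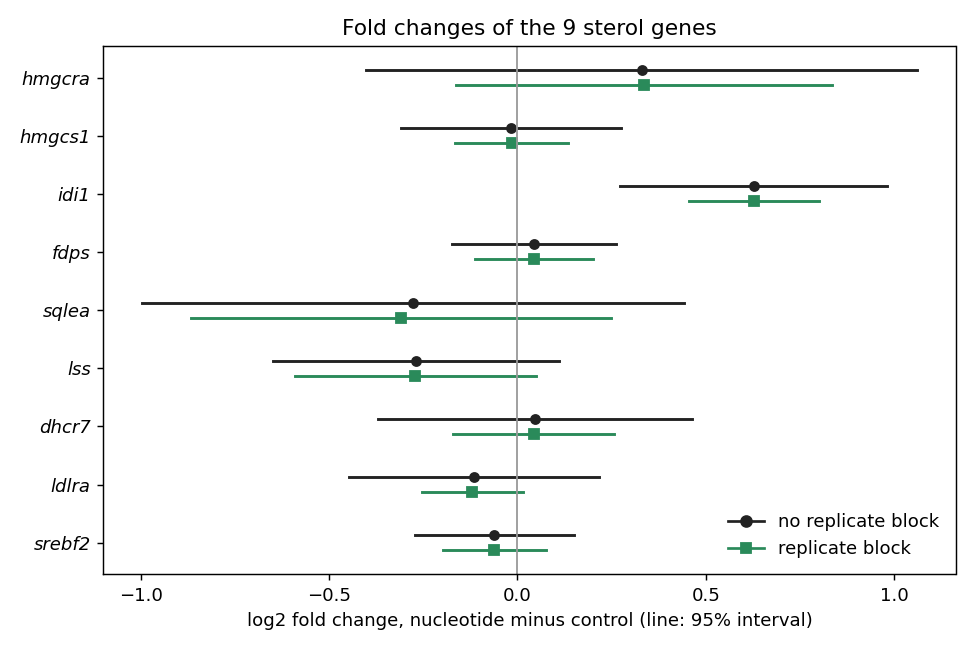
Log2 fold change of each of the 9 genes (horizontal axis, nucleotide minus control) with its 95% interval, in edgeR without (black circles) and with (green squares) the replicate block. The interval of idi1 lies above 0 in both fits, and those of the other 8 cross 0 in both.

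How much the data could have shown differed between the genes. For hmgcs1, fdps, dhcr7, ldlra and srebf2, 5 of the 9, the whole 95% interval lay within 1.5-fold in either direction, with and without the block. For 8 of the 9 it lay within 2-fold without the block, the exception being hmgcra, and for all 9 with the block. For hmgcra, sqlea and lss the interval held a change of 1.5-fold in one direction in each of these fits, as well as no change.

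**Figure D3:**
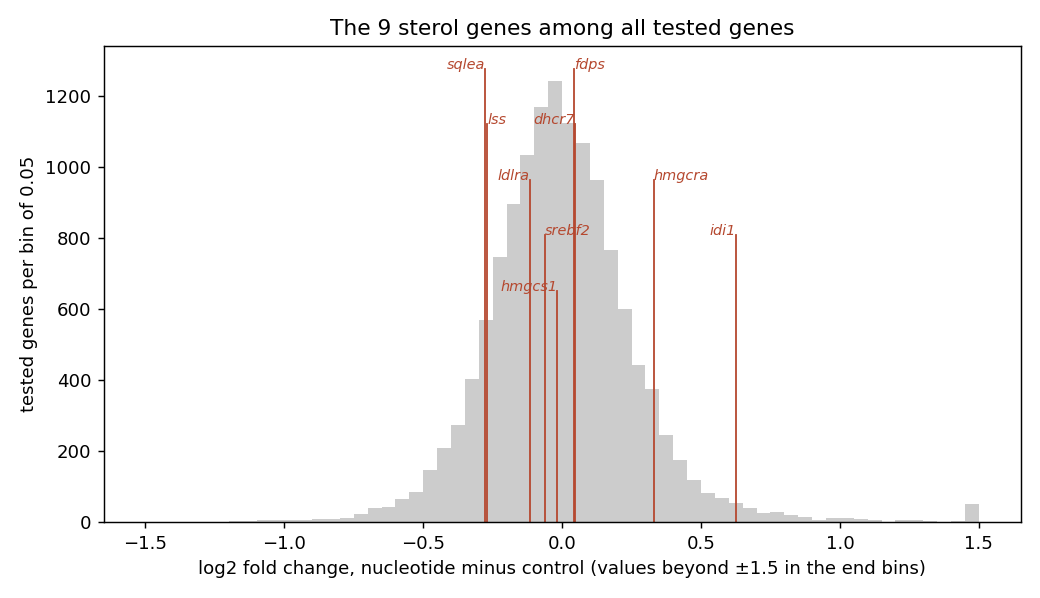
Number of tested genes (vertical axis) by log2 fold change (horizontal axis, nucleotide minus control, bins of 0.05, values beyond ±1.5 in the end bins), with a red line at each of the 9 genes. Most of the 9 stand in the central mass of genes, and idi1, at 0.63, stands on the right flank.

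Same-numbered pools shared part of their deviations in these genes. Pool 3 had the highest level of its group in both arms for hmgcra, hmgcs1, idi1 and fdps. In 19 of 27 comparisons (70.4%) a gene's deviation from its group mean had the same sign in the same-numbered libraries, a share equal to the 70.4% over all tested genes. hmgcs1, idi1, dhcr7 and ldlra did so in 3 of 3 numbers each, while hmgcra, sqlea and lss did so in 1 each. The SE of hmgcs1 was 0.126 without the block and 0.0686 with it, whereas that of lss was 0.164 without and 0.146 with it.

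**Figure D4:**
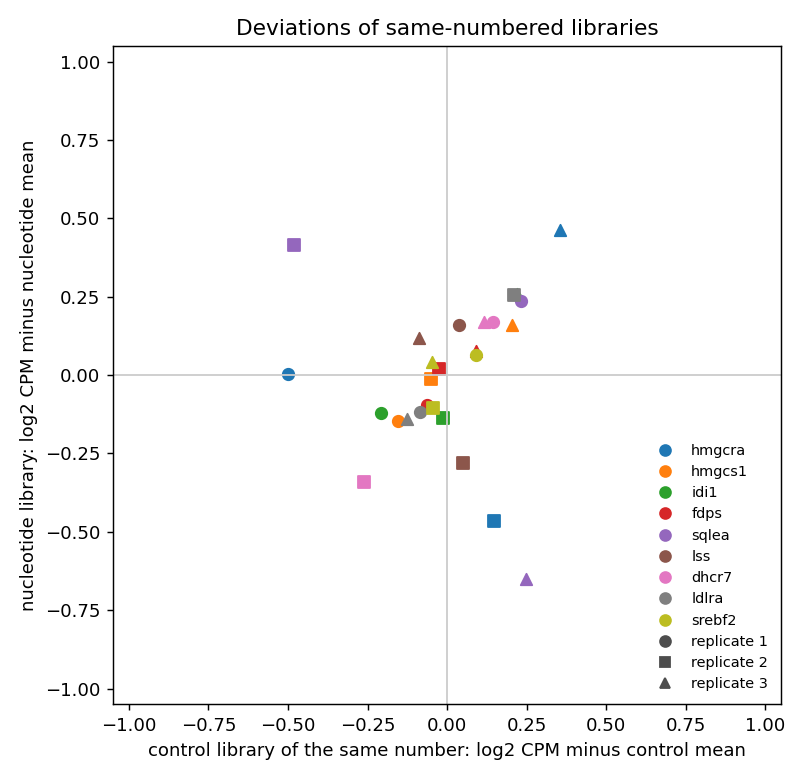
Deviation of log2 CPM from the group mean in each nucleotide library (vertical axis) against that in the control library of the same number (horizontal axis), 27 points in 9 colours, with the marker giving the replicate number. Points of hmgcs1, idi1, dhcr7 and ldlra lie in the lower left and upper right, while sqlea has points far into the other quadrants.

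The other genes of the pathway, from lists of 60 symbols of which 41 were matched and tested, were read in the same fits. In edgeR without the block 0 passed, 2 had an unadjusted p under 0.05 (msmo1 and cyp11a1), beside 14.5% of all tested genes, and DESeq2 called 0. With the block 1 rose and 3 fell, beside 10.7% and 8.38% of all tested genes. Their median log2 fold change was 0.04.

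msmo1 (406662), which encodes a methylsterol monooxygenase that takes part in the removal of methyl groups from the sterol ring, was the riser. It had 29.6, 27.1 and 31.4 CPM in nucleotide pools 1 to 3, against 22.8, 23.3 and 20.3 CPM in control pools 1 to 3. As for idi1, every nucleotide pool lay above every control pool. The log2 fold change with the block was 0.41 ± 0.0919 (SE), or 1.33-fold (edgeR adjusted p = 0.00979, against 0.139 without the block). The call was lost without pair 3 (log2 fold change 0.30, adjusted p = 0.0771).

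Both regulators that fell with the block act on lipid genes or on the LDL receptor. srebf1 (793274), the relative of srebf2 known in mammals mainly for fatty acid synthesis, had 90.4, 101 and 77.4 CPM in nucleotide and 104, 117 and 96.6 CPM in control pools 1 to 3, with overlap between the groups. Its log2 fold change with the block was -0.24 ± 0.0616 (SE) (edgeR adjusted p = 0.0178, against 0.426 without), and the call was lost without pair 2 or 3 (adjusted p = 0.0506 and 0.0664). mylipa (335888) is a counterpart of mammalian MYLIP, a ubiquitin ligase that marks the LDL receptor for breakdown. It had 246, 241 and 174 CPM in nucleotide and 276, 276 and 208 CPM in control pools, a log2 fold change with the block of -0.21 ± 0.0639 (SE) (edgeR adjusted p = 0.0408, against 0.639 without). The call of mylipa was lost without pair 1, 2 or 3 (adjusted p = 0.102, 0.184 and 0.0726).

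cyp7a1a (394148, current symbol cyp7a1), for the enzyme that commits cholesterol to bile acids, was the third to fall with the block. It had 17.5, 41.3 and 29.0 CPM in nucleotide and 29.4, 40.6 and 44.7 CPM in control pools 1 to 3. The nucleotide library was lower in 2 of 3 pairs and level in pair 2 (log2 ratio 0.02). The log2 fold change with the block was -0.44 ± 0.122 (SE) (edgeR adjusted p = 0.027, against 0.6 without), and the call was lost without pair 3 (-0.34, adjusted p = 0.189).

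By role, 7 genes of the mevalonate and isoprenoid steps were tested beside the 9, and none passed in edgeR with or without the block, or in DESeq2 without it (0 at an unadjusted p under 0.05 without the block). Of 9 further genes for the steps after squalene 1 rose with the block, of 7 genes of SREBP regulation 2 fell, of 7 for sterol uptake and transport inside the cell 0 passed, and of 11 for efflux, esterification and use 1 fell. Genes of fatty acid synthesis, where the related factor from srebf1 acts in mammals, had 0 of 7 called in edgeR in both fits and in DESeq2 without the block, and 0 at an unadjusted p under 0.05 without the block. Among all tested genes edgeR with the block called 10.7% higher and 8.38% lower. Without it 14.5% had an unadjusted p under 0.05.

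Set in the order of their reactions, the 22 tested synthesis enzymes, the 7 described above among them, did not move as one. Of the 22, 15 had a log2 fold change above the median of all genes and 7 one below it, without the block under TMM, relative log expression, upper quartile and library totals alike, and with the block 14 lay above it. In 10 the nucleotide library was the higher one in all 3 pairs and in 3 the lower one, beside 25.7% and 27.4% of all tested genes. Of the 12 enzymes from squalene onward, sqlea and lss, the first of them, had the lowest log2 fold changes (-0.28 and -0.27), and hsd17b7, at 15 to 39 counts per library, had the highest (0.56, edgeR adjusted p = 0.455). hsd17b7 and cyp11a1 were named, and this order described, after the values were seen, and the order was not tested.

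**Figure D5:**
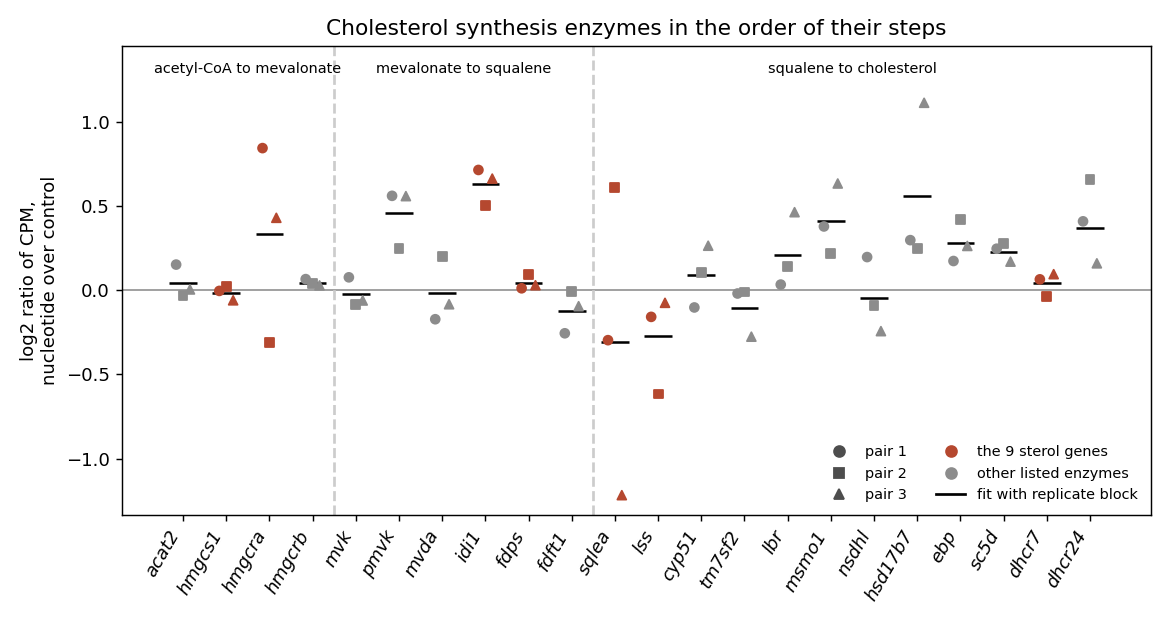
Log2 ratio of CPM, nucleotide over control, in each pair (vertical axis) for 22 cholesterol synthesis enzymes in the order of their steps (horizontal axis), with the 9 sterol genes' enzymes in red, other listed enzymes in grey and a black bar for the edgeR log2 fold change with the replicate block. idi1 and msmo1, the called ones with the block, have all 3 pairs above 0, and sqlea spans the widest range.

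Markers of cell types moved with the groups in part. Skeletal muscle genes summed to 52990 to 87420 CPM in nucleotide and 38150 to 45870 CPM in control pools (20 tested, 16 called higher with the block and 4 without it in edgeR). Among all tested genes edgeR called 10.7% higher and 8.38% lower with the block, and 0.937% higher without it. The 9 neuron markers tested summed to 2059 to 2173 CPM in nucleotide and 1795 to 1822 CPM in control pools, with 5 called higher with the block. The 13 hepatocyte markers summed to 5097 to 6837 CPM in nucleotide and 4772 to 6137 CPM in control pools, and the 9 enterocyte markers to 1920 to 2383 CPM in nucleotide and 1616 to 2769 CPM in control pools, both with overlap. With the block 5 hepatocyte markers were called higher in edgeR and 3 in DESeq2, and 0 enterocyte markers in either. Without the block edgeR called 0 hepatocyte and 0 neuron markers. DESeq2 without it called 0 hepatocyte and 2 neuron markers higher, beside 3.05% of all genes with an adjusted p. DESeq2 with the block called 8.35% of all genes with an adjusted p higher. The 8 markers of the yolk syncytial layer and lipoproteins (5411 to 7229 CPM in nucleotide and 5005 to 7532 CPM in control pools) and the 10 myelin markers (343 to 384 CPM in nucleotide and 362 to 373 CPM in control pools) overlapped as well. In edgeR with the block 2 of the yolk and lipoprotein markers were called higher and 1 lower. For the myelin markers these were 1 higher and 1 lower, beside 10.7% and 8.38% of all tested genes. DESeq2 with the block called 2 yolk and lipoprotein markers higher and 1 lower, and 0 myelin markers. Its shares of all genes with an adjusted p were 8.35% higher and 4.82% lower. Without the block edgeR called 0 in either list. Genes of steroid hormone synthesis, which start from cholesterol, summed to 46.7 to 54.4 CPM in nucleotide and 57.3 to 61.1 CPM in control pools. These sums did not overlap. Much of them was star, with means of 26.1 CPM in nucleotide and 26.6 CPM in control pools (log2 fold change -0.03). The median log2 fold change of the list was -0.64. In 0 of its 7 tested genes was the value positive, beside 47.4% of all tested genes. Part of the list was thinly counted, with cyp11a1 at 9 to 13 counts per library in nucleotide and 18 to 22 in control pools. Of the 7 tested, 2 fell with the block, beside 8.38% of all tested genes, and 0 passed without it in edgeR. At an unadjusted p under 0.05 in edgeR without the block there were 3, beside 14.5% of all tested genes. DESeq2 called 0 without the block and 2 lower with it, where 4.82% of all genes with an adjusted p were called lower. Of 79 matched marker entries 1, the neuron gene gap43, was at 0 in all libraries. The gene mtp is entered both as an enterocyte and as a yolk and lipoprotein marker. star and cyp11a1 are in the steroid hormone list and among the genes for sterol efflux, esterification and use. The part of these shifts in the values of idi1 and msmo1 was not tested.

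The mean profile of the 9 genes, in which hmgcra and sqlea weigh most because they vary most, was compared with 8671 other named genes of at least 10 CPM as a description over 6 libraries that share depth and replicate numbers with it. The nearest in log2 CPM were mfge8a, eif4ebp1, ttc36, phyh and apoa4b.2 (Pearson r = 0.994, 0.993, 0.986, 0.985 and 0.984), and 32 genes reached 0.95. By deviations from the group means dnmt3b, pm20d1.1, eif4ebp1 and snrnp40 were among the nearest (r = 0.997, 0.997, 0.995 and 0.995), where 143 genes reached 0.95. None of the genes named for likeness was called in edgeR with or without the block. With so few libraries many genes reach such values.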

How the data were processed

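RNA of 6 pools of whole embryos was sequenced. Per the submitters' processing notes, TopHat2, HTSeq, DESeq2 and the build GRCz10 were used, in versions not named there. Nor do they name the gene models, whether strand was used or how reads with several matches were handled. The authors deposited raw counts, whole numbers without normalization, in 14681 rows. The deposited comparison holds, per the file headers, a mean signal, log2 fold changes, a score (headed stat) and p-values. Columns were assigned by library name. After 69 repeated rows were dropped, 14612 genes were left.

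Counts were tested with edgeR 4.0.16 in R 4.3.3 across all 13336 genes kept by filterByExpr (minimum count 10, minimum total 15), with TMM scaling, the quasi-likelihood F test (2-sided) and Benjamini-Hochberg adjustment over all of them. All 9 sterol genes passed the filter. SE is the size of the log2 fold change divided by the square root of F. CPM use TMM-scaled totals. DESeq2 1.42.0, other scalings, no filter, left-out libraries and the replicate block were alternatives. Fits with the block and without each pair were planned for the count of the 9 genes called. For single genes and the other lists they were added after the data were seen, as was DESeq2 with the block. Fits without a pair have few libraries and lean on a spread estimated over many genes, so their p-values call for caution. The steps were tested on simulated data.

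Deviations of log2 CPM from group means correlated at 0.546, 0.625 and 0.617 between same-numbered libraries and at -0.403 to -0.232 between others. Deviations cancel out within a group, so negative values between others are bound to accompany positive ones. By a rule of over 0.1 between the same-numbered libraries of every pair, the numbers were taken as pairs. That pairing comes from the counts, as the labels do not state that libraries of the same number belong together. The library names end in the same number within pair 2 and within pair 3. Within pair 1 they end in different numbers (EM2 for control and NT1 for nucleotide). The names do not say what these numbers stand for, so they bear out the pairing only in part.

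The genes and lists were chosen with earlier results of these data known. Of 176 listed entries 137 were matched, 132 by symbol and the others through NCBI gene identifiers (RefSeq, GRCz12tu). Named genes are the 9, listed sterol genes past the threshold with or without the block, paralogs of the 9, and the 5 closest profiles by each measure, of which 1 is not reported here.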

Additional observations from a re-analysis of the deposited data

How the results depend on the processing

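Counts over all genes moved most. Without the block edgeR called 125 genes higher and 7 lower, with it 1432 and 1118. DESeq2 called 399 and 98 without the replicate block and 1006 and 581 with it. Leaving out 1 library gave 39 to 79 higher and 0 to 2 lower, fewest without control library 1. Library totals gave 18 lower and upper quartile 11.

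Of the 9 genes 1 was called higher by DESeq2, by edgeR with the replicate block and by DESeq2 with it, each time idi1 (log2 fold changes 0.63, 0.63 and 0.63). These 3 values come from the same counts. In edgeR without the block idi1 was at 0.50 with library totals. With 1 library left out it lay between 0.49 (without nucleotide library 3) and 0.75 (without control library 3). With the block and 1 pair left out, 0 to 1 of the 9 were called lower (sqlea without pair 2). Of the other listed sterol genes 1 rose with the block in either tool, and 3 fell in edgeR and 2 in DESeq2. With 1 pair left out 1 to 3 rose and 0 to 4 fell, 0 without pair 3. The median of the 9 genes was -0.14 with library totals, where the median of all genes was -0.138, and lay between -0.045 and 0.0916 with 1 library left out.

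Without the block, the changes of sign were in genes with a log2 fold change under 0.05 in size. With library totals fdps, dhcr7 and hmgcrb were at -0.0823, -0.0798 and -0.0816. With 1 library left out hmgcs1 lay between -0.0961 and 0.0942 and dhcr7 between -0.0706 and 0.197. With the block, sqlea also changed sign, lying between -0.73 and 0.12 with 1 pair left out. DESeq2 with the block gave no adjusted p to hmgcra, the thinnest of the 9 at 42 to 128 counts per library, nor to hsd17b7 and cyp11a1, at 15 to 39 and 9 to 22. Over the alternatives to the fit without the block, 176 values of single genes kept direction and side of the threshold, 10 newly passed it and 8 changed sign. None of these genes was called in edgeR without the block, so no call could be lost there.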

Other observations

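Other genes with sterol or LDL receptor words in their description, 22 of them tested, were grouped after their values were seen. With the replicate block 2 rose and 6 fell in edgeR, beside 10.7% and 8.38% of all tested genes. Without it 1 fell, lrp6 (edgeR adjusted p = 0.0383), beside 0.0525% of all tested genes called lower. That call was lost with any 1 library left out (adjusted p = 0.0787 to 0.147). DESeq2 without the block gave lrp6 an adjusted p of 6.18e-05. The call of lrp6 with the block held without pair 1, 2 or 3 (edgeR adjusted p = 9.39e-09, 7.8e-10 and 0.000823), with the limit given for idi1. lrpap1 (333939), for a chaperone of LDL receptor family proteins in the endoplasmic reticulum, had 46.6, 51.8 and 50.2 CPM in nucleotide pools 1 to 3, against 35.1, 37.4 and 39.0 CPM in control pools 1 to 3 (log2 fold change with the block 0.41 ± 0.0673 SE, edgeR adjusted p = 0.00182, and 0.0904 without the block). scp2b (450073), a sterol carrier protein gene, had 43.0, 49.5 and 51.9 CPM in nucleotide and 32.7, 36.7 and 39.1 CPM in control pools (0.41 ± 0.0668 SE with the block, edgeR adjusted p = 0.00182, and 0.157 without). Both held without pair 1, 2 or 3. In DESeq2 without the block the adjusted p was 0.0146 for lrpap1 and 0.0664 for scp2b.

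The 6 that fell with the block were lrp6, with a log2 fold change with the block of -0.64, lrp2a, for the endocytic receptor megalin, of -0.46, lrp3 of -0.39, lrp5 of -0.33, ldlrad3 of -0.32 and vldlr of -0.25. They were grouped by the words of their descriptions, which do not show a role in lipoprotein uptake. Of others with like names, lrp11 (-0.22, adjusted p = 0.0869) and lrp12 (-0.04, adjusted p = 0.656) did not pass in edgeR with the block. vldlr had 94.1, 103 and 95.2 CPM in nucleotide and 114, 118 and 114 CPM in control pools 1 to 3. The call of lrp3 was lost without pair 3 (edgeR adjusted p = 0.0713) and that of vldlr without pair 1 (adjusted p = 0.0639).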
